A study of Mus musculus with 10 samples.

Results

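Ribosome biogenesis was followed through 33 genes for the factors that make, process and assemble ribosomes, together with enzymes of polyamine and pyrimidine synthesis that growing cells use alongside them. The genes were taken by name, with earlier results of these data known. All 33 had a probe set, and they stand among 24704 genes measured. RNA came from mouse liver sinusoidal endothelium in primary isolation, the cells that line the capillaries of the liver. The 5 arrays labelled Gata4-LSEC-KO, called KO here, come from mice in which the Clec4g-icre driver was combined with a floxed Gata4 gene (Gata4 encodes a zinc finger transcription factor, and Clec4g is a gene of sinusoidal endothelium). The 5 control arrays are of sibling mice labelled WT, and no label says whether they carry the Cre or the floxed allele. Each array holds RNA of a pool of 3 mice, from cells purified with beads against CD146 after collagenase digestion and a density gradient. No age, sex or batch is given.

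Ribosomes are built in the nucleolus. RNA polymerase I copies the ribosomal RNA precursor there, small nucleolar ribonucleoproteins guide its chemical modification, and large sets of assembly factors cut and fold it into the small and the large subunit. The transcription factor MYC is known to raise many of these genes in growing cells, which is why the Myc value of each array is given beside them.

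The deposited values are log2 RMA values, so a difference of 1 is a doubling, and every difference below is KO minus control with its standard error (SE). The targeted gene did not separate the groups: Gata4 averaged 8.59 ± 0.24 in the KO arrays and 8.71 ± 0.15 in the control arrays (SD, n = 5), and no source used here places its probes relative to the deleted part, so the labels could not be checked by it. Markers of the labelled cell type were bright, with Stab2, a hyaluronan scavenger receptor, between 10.34 and 10.99 in the KO arrays and between 11.02 and 11.48 in the control arrays. Clec4g, a lectin gene of the same cells, lay between 10.92 and 11.54 in the KO arrays and between 11.78 and 12.13 in the control arrays. Mcam, the gene of the CD146 antigen, was higher in the KO arrays, at 9.01 ± 0.10 against 7.77 ± 0.19 in the controls (SD, n = 5, adjusted p = 0.000242). Control replicate 1 stood apart, with correlations of 0.920 to 0.944 with the other arrays across genes, against 0.969 to 0.988 among the other 9. Results that rest on that array are given with and without it.

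The differences in ribosome biogenesis genes were small and mostly upward. Of the 33 genes, 2 passed the threshold (limma, adjusted p under 0.05 over all genes), both higher in the KO arrays: Polr1a, the largest subunit of RNA polymerase I, 1.58-fold, and Pa2g4, a growth-linked nucleolar protein, 1.48-fold. None passed in the lower direction, against 209 of all 24704 genes. There 0 of 33 also had an unadjusted p under 0.05, against 1624 of all genes. The 2 genes are 6.06% of the 33, while 1.3% of all genes passed as higher and 2.14% in either direction. An unadjusted p under 0.05 with a higher value was found for 8 of the 33 genes (24.2%), against 7.07% of all genes. The KO values lay wholly above the control values for 5 of the 33 (15.2%), Polr1a, Pa2g4, Nop58, Wdr43 and Ddx21, against 2.55% of all genes. As the list was chosen with earlier results of these data known, none of these shares was tested against that of all genes.

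Most of the other members leaned the same way by amounts that single genes could not separate from the spread between arrays. The difference was above 0 for 28 of 33 genes (84.8%), against 44.8% of all genes and 44.9% of the 12390 genes brighter than the median of all values, which include all 33. Their median difference was 0.22, a ratio of 1.16, against -0.02 for all genes. The 5 below 0 were Nip7, Mrto4, Rrs1, Rrp9 and Nle1. Without control replicate 1 the median was 0.13, the difference was above 0 for 27 genes (81.8%, against 45% of all genes), and Polr1a and Pa2g4 again passed, where 1.59% of all genes passed as higher. Standard errors ran from 0.10 to 0.32, and for 31 of the 33 genes the 95% interval of the difference stayed within a doubling in either direction. Srm and Dkc1 were the exceptions.

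**Figure D1:**
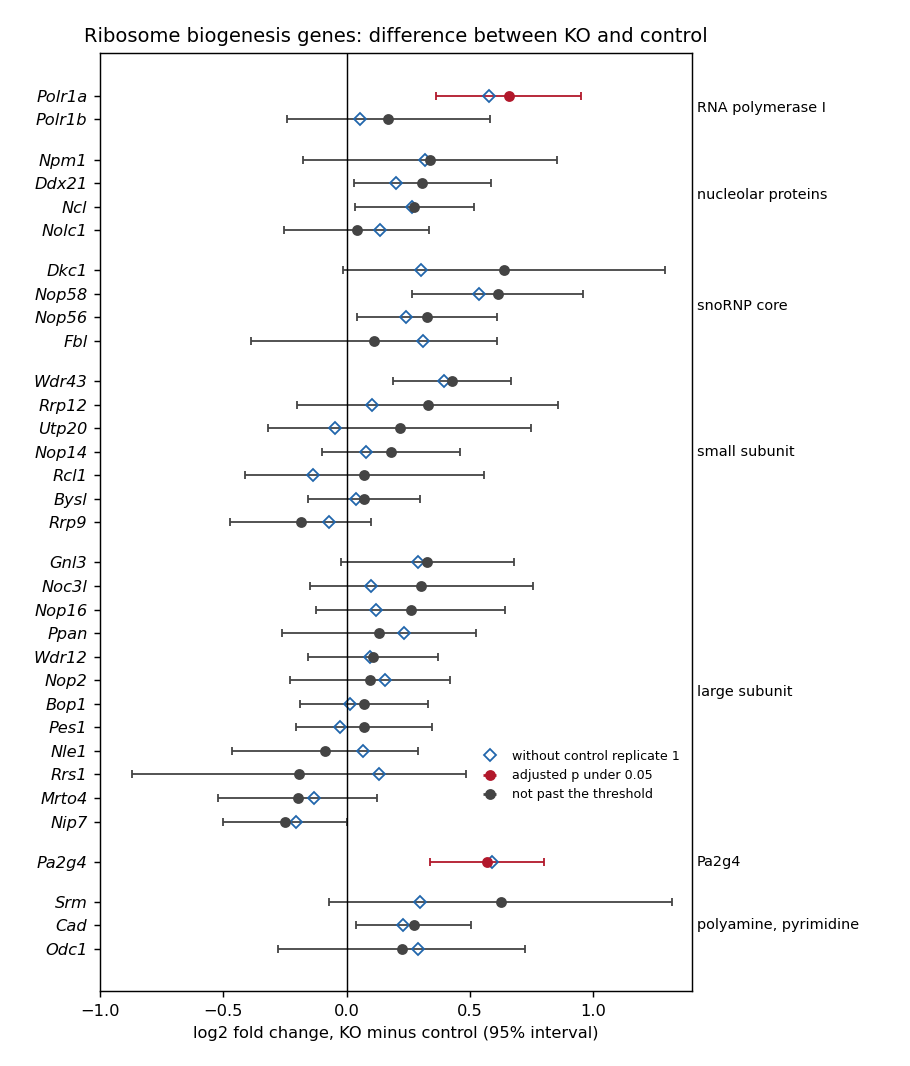
Log2 fold change (KO minus control) of each of the 33 genes, grouped by role, with the 95% interval from limma; filled circles use all 10 arrays (red, adjusted p under 0.05) and open diamonds leave out control replicate 1. The points range from -0.25 for Nip7 to 0.66 for Polr1a, with 28 of 33 above 0, and the diamonds of Dkc1 and Srm lie at 0.30.

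Of the RNA polymerase I subunits, Polr1a carries much of the catalytic centre. It read 6.04, 5.74, 6.28, 6.05 and 6.04 in KO replicates 1 to 5, against 5.05, 5.54, 5.27, 5.60 and 5.41 in control replicates 1 to 5. Every KO array was above every control array, by the narrowest margin between KO replicate 2 and control replicate 4. The difference was 0.66 ± 0.13 (SE, adjusted p = 0.0291), and the 95% interval of the ratio ran from 1.29 to 1.94. The call did not hold when KO replicate 1, 3, 4 or 5, or control replicate 3 or 5, was left out, where the highest adjusted p was 0.0796 (limma). The difference itself stayed between 0.58 and 0.73 whichever array was left out. Polr1b, the other large subunit of the enzyme, overlapped between the groups, at 5.11 to 5.75 in the KO arrays and 4.78 to 5.78 in the controls. Its difference was 0.17 ± 0.19 (SE, adjusted p = 0.753), or 0.05 without control replicate 1.

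Pa2g4 encodes EBP1, a protein found in the nucleolus and on ribosomes. It read 7.88, 8.01, 7.69, 7.62 and 7.72 in KO replicates 1 to 5, against 7.30, 7.25, 7.27, 7.19 and 7.06 in control replicates 1 to 5. The groups did not overlap, and control replicate 1 was the highest control for this gene. The difference was 0.57 ± 0.11 (SE, adjusted p = 0.0178), and the 95% interval of the ratio ran from 1.26 to 1.74. The call ended without control replicate 4 (adjusted p = 0.0504) or control replicate 5 (adjusted p = 0.0554).

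**Figure D2:**
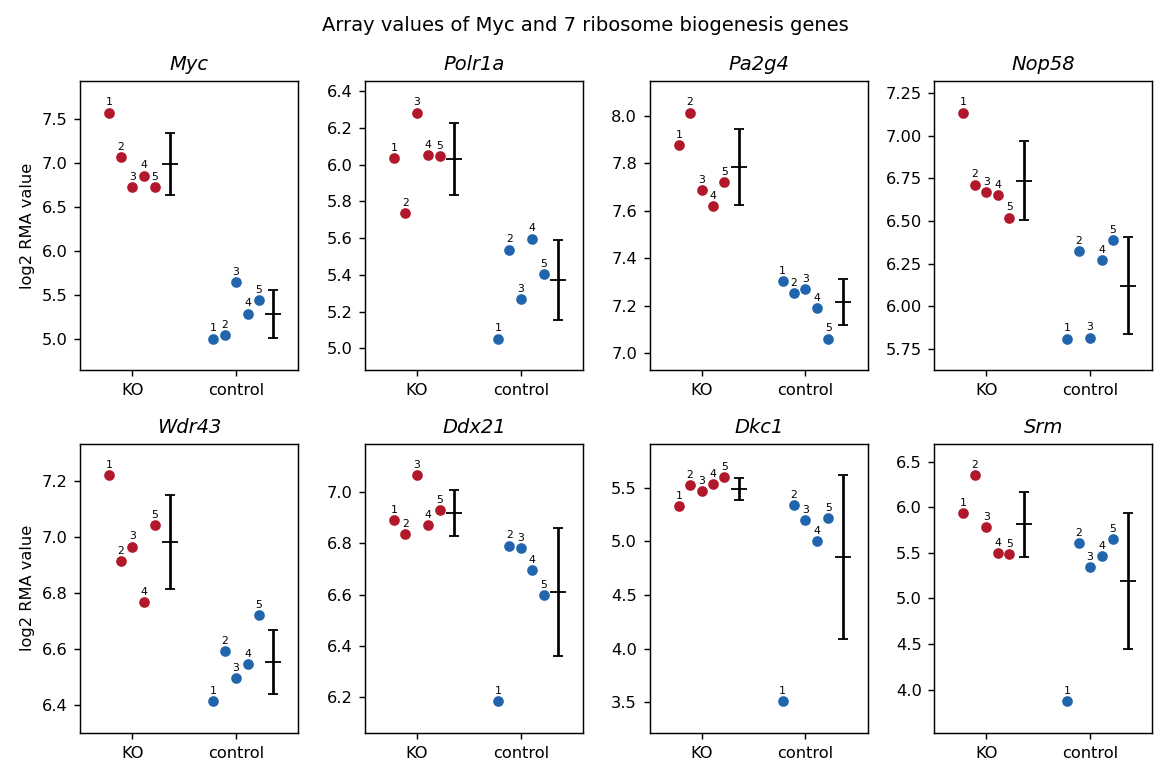
Log2 RMA values of Myc and 7 ribosome biogenesis genes, KO left and control right; each point is 1 array, numbered by replicate, and the bar beside each group is its mean ± SD (n = 5). The groups do not overlap for Myc, Polr1a, Pa2g4, Nop58, Wdr43 and Ddx21, while control replicate 1 lies far below all other arrays for Dkc1 and Srm.

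Promoter sequence was looked at because MYC is known to bind the E-box CACGTG, a palindrome that reads the same on both strands. RefSeq promoter windows (build GRCm38.p6, 250 bases before to 50 after the start of the gene) were held for 27 of the 33 genes, as 29 windows. CACGTG occurred in 5 of the 29 windows (17.2%), those of Wdr43, Utp20, Nop2, Pes1 and Nle1, against 7.15% of all 32851 windows and 7.96% of those of genes on the array. Of the 120 other biogenesis genes 101 had windows, and CACGTG occurred in 21 of their 116 windows (18.1%); the difference between the shares was not tested. The looser form CANNTG, which includes CACGTG, occurred in 55.2% of the members' windows and 72.3% of all windows. The 5 genes with CACGTG in their window had a median difference of 0.10 and the 22 without it there 0.24. Sequence outside the windows was not searched. A match is a run of letters in this window and not a shown binding site.

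The 5 windows printed here are those of Polr1a and Pa2g4, the members past the threshold, which hold no CACGTG, and those of Wdr43, Utp20 and Nop2, which have the smallest p-values among members that hold it (capitals, starting 18 and 38 bases after the start of Wdr43 and Utp20 and 60 bases before that of Nop2). They lie at chr6:71908803-71909102 on the plus strand (Polr1a), chr10:128565885-128566184 on the minus strand (Pa2g4), chr17:71615965-71616264 on the plus strand (Wdr43), chr10:88826765-88827064 on the minus strand (Utp20) and chr6:125131633-125131932 on the plus strand (Nop2), and are written 5′ to 3′ along the gene.
Polr1a: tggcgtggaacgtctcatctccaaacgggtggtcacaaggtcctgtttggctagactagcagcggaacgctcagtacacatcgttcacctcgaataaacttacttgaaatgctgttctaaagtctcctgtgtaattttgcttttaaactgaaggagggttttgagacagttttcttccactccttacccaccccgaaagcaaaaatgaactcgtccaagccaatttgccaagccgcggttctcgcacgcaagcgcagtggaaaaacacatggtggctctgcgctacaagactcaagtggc
Pa2g4: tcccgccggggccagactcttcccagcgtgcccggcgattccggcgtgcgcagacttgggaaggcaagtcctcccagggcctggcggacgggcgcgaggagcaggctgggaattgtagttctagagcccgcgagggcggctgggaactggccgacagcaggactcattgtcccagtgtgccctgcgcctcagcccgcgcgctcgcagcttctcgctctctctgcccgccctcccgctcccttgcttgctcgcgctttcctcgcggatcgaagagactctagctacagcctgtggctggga
Wdr43: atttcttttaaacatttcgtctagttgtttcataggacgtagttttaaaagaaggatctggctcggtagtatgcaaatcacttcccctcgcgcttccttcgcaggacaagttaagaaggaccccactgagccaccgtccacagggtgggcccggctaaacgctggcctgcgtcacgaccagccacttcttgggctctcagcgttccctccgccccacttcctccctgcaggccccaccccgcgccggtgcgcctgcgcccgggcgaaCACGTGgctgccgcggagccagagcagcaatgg
Utp20: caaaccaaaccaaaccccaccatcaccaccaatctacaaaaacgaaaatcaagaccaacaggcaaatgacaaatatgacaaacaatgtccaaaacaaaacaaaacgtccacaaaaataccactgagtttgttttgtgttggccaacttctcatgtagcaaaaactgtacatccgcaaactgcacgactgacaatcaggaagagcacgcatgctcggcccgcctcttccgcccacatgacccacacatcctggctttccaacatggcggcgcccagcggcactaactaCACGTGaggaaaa
Nop2: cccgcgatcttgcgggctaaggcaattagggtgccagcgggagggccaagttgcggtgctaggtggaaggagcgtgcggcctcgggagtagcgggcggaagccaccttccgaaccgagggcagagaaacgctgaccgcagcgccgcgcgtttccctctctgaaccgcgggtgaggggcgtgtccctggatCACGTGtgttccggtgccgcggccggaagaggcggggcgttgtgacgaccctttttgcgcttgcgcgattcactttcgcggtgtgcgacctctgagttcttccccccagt

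Among the core proteins of small nucleolar ribonucleoproteins, Nop58, Nop56 and Fbl belong to the box C/D particles that methylate ribosomal RNA, and Dkc1 (dyskerin) is the pseudouridine synthase of the box H/ACA particles. Nop58 read 7.13, 6.71, 6.67, 6.65 and 6.52 in KO replicates 1 to 5, against 5.81, 6.33, 5.82, 6.27 and 6.39 in control replicates 1 to 5. All 5 KO arrays lay above all control arrays, and the size of the difference, 0.61 ± 0.16 (SE), was close to that of Polr1a, but it did not pass (adjusted p = 0.0794). Nop56, the partner of Nop58 in the particle, lay at 6.30, 6.51, 6.38, 6.17 and 6.14 in the KO arrays, against 5.63, 6.15, 6.05, 6.17 and 5.85 in the controls. For Nop56 the KO values overlapped the upper controls, with a difference of 0.33 ± 0.13 (SE, adjusted p = 0.284).

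Dkc1 had 1 of the widest intervals. Its KO arrays lay close together at 5.33, 5.53, 5.47, 5.54 and 5.60, against 3.51, 5.34, 5.20, 5.01 and 5.22 in control replicates 1 to 5. Control replicate 1 alone was low, and the difference of 0.64 ± 0.30 (SE, adjusted p = 0.381) became 0.30 without it. Fbl (fibrillarin, the methyltransferase) ran from 5.25 to 5.73 in the KO arrays and from 4.79 to 6.24 in the controls, where replicate 1 was the highest. The Fbl difference of 0.11 ± 0.23 (SE) turned to -0.05 without control replicate 2 and was 0.31 without control replicate 1.

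None of the 4 abundant nucleolar proteins passed. Ddx21, an RNA helicase that works on ribosomal RNA transcription and processing, read 6.89, 6.83, 7.06, 6.87 and 6.93 in the KO arrays, against 6.18, 6.79, 6.78, 6.70 and 6.60 in the controls. Its groups did not overlap, though KO replicate 2 and control replicate 2 almost met, and the difference of 0.31 ± 0.13 (SE) did not pass (adjusted p = 0.305). Ncl (nucleolin) read 8.10, 8.10, 7.71, 7.87 and 7.85 in the KO arrays, against 7.61, 7.80, 7.66, 7.71 and 7.47 in the controls. For Ncl, 4 of 5 KO arrays were above the highest control, with a difference of 0.28 ± 0.11 (SE, adjusted p = 0.292). Npm1 (nucleophosmin) spread from 4.81 to 5.93 in the KO arrays and from 4.45 to 5.39 in the controls, a difference of 0.34 ± 0.24 (SE, adjusted p = 0.592). Nolc1, a chaperone of small nucleolar particles, was the member nearest to 0 at 0.04 ± 0.13 (SE), and its sign changed without KO replicate 3 or control replicate 5 (-0.01 without the control).

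The factors of the small subunit were led by Wdr43, a component of the complex that binds the nascent precursor first. Wdr43 read 7.22, 6.91, 6.96, 6.77 and 7.04 in KO replicates 1 to 5, against 6.41, 6.59, 6.49, 6.54 and 6.72 in control replicates 1 to 5. The groups did not overlap, and the difference of 0.43 ± 0.11 (SE) missed the threshold with an adjusted p of 0.0762. Rrp12, needed for export of the subunits, ran from 4.25 to 4.94 in the KO arrays and from 3.33 to 4.62 in the controls. Its difference was 0.33 ± 0.24 (SE) and was 0.10 without control replicate 1, the lowest array.

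The other small subunit factors overlapped between the groups. Utp20 (0.22 ± 0.24), a large scaffold protein, and Rcl1 (0.07 ± 0.22), which acts at an early cleavage, turned to -0.05 and -0.14 without control replicate 1. Nop14 (0.18 ± 0.13) became 0.08 without that array. Bysl (bystin, 0.07 ± 0.10) had a 95% interval from -0.16 to 0.30. Rrp9, a protein of the U3 particle that guides early cleavages, was the member of this group below 0, at -0.19 ± 0.13 (each SE). Its KO arrays lay between 4.85 and 4.99, against 4.85 to 5.55 in the controls, where replicate 1 was the highest, and without that array the difference was -0.07. None of the 7 small subunit genes passed. With all arrays 6 of 7 were above 0 with a median of 0.18, and without control replicate 1 it was 4 of 7 with a median of 0.04.

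The 12 large subunit factors had a median difference of 0.08, with 8 of 12 above 0 and none past the threshold or with an unadjusted p under 0.05. Without control replicate 1 their median was 0.10, with 9 of 12 above 0. The subunits of the PeBoW complex, which processes the large subunit RNA, stayed near 0: Wdr12 at 0.11 ± 0.12, Bop1 at 0.07 ± 0.12 and Pes1 at 0.07 ± 0.13 (SE). The upper ends of their 95% intervals were 0.37, 0.33 and 0.35, so a change as large as that fitted for Polr1a lay outside each of them, and Pes1 turned to -0.03 without control replicate 1. Gnl3 (nucleostemin, a nucleolar GTP-binding protein) was highest of the 12 at 0.33 ± 0.16 (SE, adjusted p = 0.410). Its KO arrays read 6.77, 6.05, 6.12, 5.93 and 6.11, against 5.72, 5.69, 6.12, 5.84 and 5.96 in the controls, so KO replicate 1 alone stood clear. Noc3l (0.30 ± 0.21) and Nop16 (0.26 ± 0.17) were at 0.10 and 0.12 without control replicate 1 (each SE).

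Further large subunit factors lay close to 0 in both directions. Ppan was at 0.13 ± 0.18 and Nop2, a methyltransferase of the large subunit RNA, at 0.10 ± 0.15. Nle1 (-0.09 ± 0.17) and Rrs1 (-0.19 ± 0.31), which helps to bring in the 5S particle, turned to 0.07 and 0.13 without control replicate 1. Mrto4 (-0.20 ± 0.15, each SE), a placeholder for a stalk protein, stayed below 0 without that array, at -0.13. Nip7 was the lowest member at -0.25 ± 0.11 (SE, adjusted p = 0.372). It read 5.79, 5.68, 5.60, 5.71 and 5.29 in the KO arrays, against 6.04, 5.82, 5.90, 5.81 and 5.75 in the controls, so that 4 of 5 KO arrays were below the lowest control and KO replicate 1 overlapped with it.

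The enzymes that feed growth were above 0 without passing. Srm (spermidine synthase) read 5.94, 6.35, 5.78, 5.50 and 5.49 in the KO arrays, against 3.87, 5.61, 5.34, 5.46 and 5.65 in the controls. As with Dkc1, control replicate 1 was far below the rest, and the difference of 0.62 ± 0.32 (SE, adjusted p = 0.439) was 0.30 without it. Cad, which carries the opening steps of pyrimidine synthesis, read 4.94, 5.13, 5.31, 4.99 and 5.24 in the KO arrays, against 4.67, 4.91, 4.82, 4.94 and 4.90 in the controls. Here 4 of 5 KO arrays exceeded every control, with a difference of 0.27 ± 0.11 (SE, adjusted p = 0.271). Odc1 (ornithine decarboxylase, the rate-limiting enzyme of polyamine synthesis) overlapped widely, from 5.10 to 6.00 in the KO arrays and from 4.87 to 6.02 in the controls, at 0.22 ± 0.23 (SE).

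Genes next to these enzymes in the same pathways were looked at from a list that holds none of the 33. Of 5 measured pyrimidine genes, 1 passed, Ctps, the CTP synthase, which was 2.41-fold higher (1.27 ± 0.26, SE, adjusted p = 0.0270). Ctps read 5.68, 5.70, 5.89, 5.39 and 5.95 in the KO arrays, against 3.38, 4.70, 4.84, 4.82 and 4.54 in the controls. All KO arrays exceeded all controls, and without control replicate 1, again the lowest, the difference was 1.00 with an adjusted p of 0.00189. Leaving out KO replicate 1, 2, 3 or 5, or control replicate 5, took the adjusted p past the threshold, to at most 0.0696. Ctps also did not pass with the replicate block or with the neutrophil, cholangiocyte or cell cycle marker mean as a covariate. Of 6 measured polyamine genes none passed. Azin1, the antizyme inhibitor that protects ornithine decarboxylase, came nearest at 0.69 ± 0.19 (SE, adjusted p = 0.0946), with groups that did not overlap, followed by the spermine oxidase Smox at 0.48 ± 0.18 (SE, adjusted p = 0.243).

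The wider set of ribosome biogenesis factors had differences on both sides of 0. Of 120 other genes measured (further RNA polymerase I subunits and factors, small nucleolar particle proteins, small and large subunit factors and the RNA exosome), 0 passed in either direction by limma, against 2.14% of all genes. An unadjusted p under 0.05 with a higher value was found for 8 (6.67%), against 7.07% of all genes. With a lower value it was found for 7, against 1624 of all 24704 genes. Their difference was above 0 for 72 of 120 (60.0%, against 44.8% of all genes), with a median of 0.04. Without control replicate 1 it was above 0 for 53 of 120 (44.2%), with a median of -0.03, against 45.0% and -0.02 for all genes in the same fit. No test of the difference between the 33 genes and these 120 was made, since the 33 were chosen with earlier results of these data known.

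By role, the smallest p-values among these other genes went to members on both sides of 0. In the small subunit group they were Tbl3 (-0.39 ± 0.13, adjusted p = 0.172) and Utp4 (0.43 ± 0.16, adjusted p = 0.238), which acts in the same early complex as Wdr43. In the large subunit group they were Noc2l (0.39 ± 0.14, adjusted p = 0.226) and the helicase Ddx31 (0.31 ± 0.11, adjusted p = 0.231). Among RNA polymerase I genes they were Taf1c (-0.28 ± 0.13, adjusted p = 0.358), a subunit of the promoter selectivity factor, and Polr1c (0.25 ± 0.13, adjusted p = 0.461), which RNA polymerase III shares. Exosome subunits gave Exosc3 (-0.31 ± 0.12, adjusted p = 0.285) and the nuclease Dis3 (0.39 ± 0.16, adjusted p = 0.324). Small nucleolar particle genes gave Ruvbl2 (-0.09 ± 0.11, adjusted p = 0.785) and Nop10 (0.17 ± 0.24, adjusted p = 0.810, each SE).

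**Figure D3:**
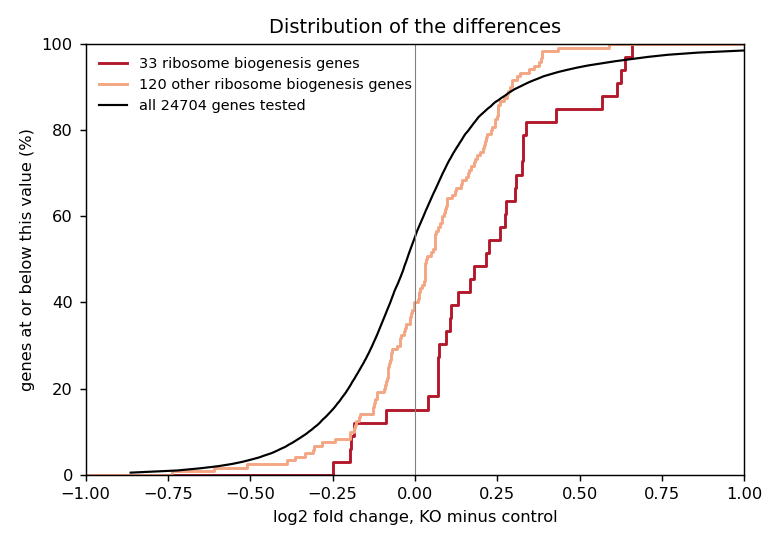
Cumulative share of genes (%) against their log2 fold change, KO minus control, for the 33 genes, the 120 other ribosome biogenesis genes and all 24704 genes tested. The curve of the 33 genes lies to the right over most of its course, with a median of 0.22 against 0.04 for the other 120 and -0.02 for all genes, and ends at 0.66.

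Myc itself differed far more than any of these genes. It read 7.57, 7.07, 6.72, 6.86 and 6.73 in KO replicates 1 to 5, against 5.01, 5.05, 5.65, 5.29 and 5.45 in control replicates 1 to 5. The lowest KO array was above the highest control by more than 1 on the log2 scale, and the difference was 1.70 ± 0.18 (SE, adjusted p = 0.000732), a ratio of 3.25. Since the Myc values form 2 separate clusters of 5 arrays, no correlation with the members was computed.

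Array by array, the mean of the 33 genes followed the same division between groups. Relative to each gene's control mean, it was 0.30, 0.21, 0.24, 0.14 and 0.16 in KO replicates 1 to 5, against -0.17, 0.02, 0.08, 0.02 and 0.04 in control replicates 1 to 5. The groups did not overlap, and KO replicate 4 and control replicate 3 came nearest to each other. Control replicate 1 was the lowest array, so leaving it out could not make the groups overlap. In each KO array, 24 to 26 of the 33 genes were above their control mean, against 20, 22, 21 and 18 in control replicates 2 to 5 and 11 in control replicate 1, which is part of that mean and lowers it for many genes. Within the controls the order of the arrays by this mean was the order by Myc, with replicate 3 highest, then 5, 4, 2 and 1, but replicates 2 to 5 lay close together, between 0.02 and 0.08. Within the KO arrays replicate 1 was highest in both, while replicate 3 had the lowest Myc and the next highest mean, and replicate 4 had the lowest mean and the middle Myc value. With 5 arrays a group, neither order was tested. The 33 genes were chosen with earlier results of these data known, so their division by array is a description and not separate support. These means and counts by array were not computed over all genes.

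**Figure D4:**
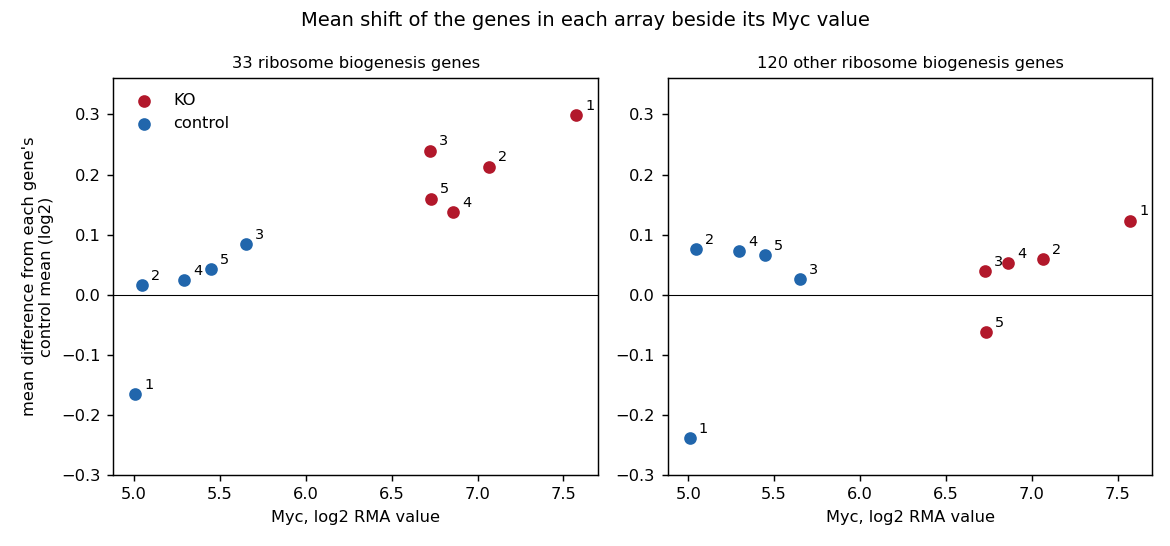
Mean difference of the 33 genes (left) and of the 120 other ribosome biogenesis genes (right) from each gene's control mean, log2, against the Myc value of the same array; points are arrays, numbered by replicate. On the left the KO arrays lie at 0.14 to 0.30 and the controls at -0.17 to 0.08, while on the right the KO arrays span -0.06 to 0.12 and overlap with control replicates 2 to 5 at 0.03 to 0.08.

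Control replicate 1 weighed on many members. It was the lowest of the 10 arrays for 17 of the 33 genes (51.5%) and for 56 of the 120 other genes (46.7%), against 32.0% of the genes brighter than the median of all values. It was also the highest array for 6 of the 33, among them Rrs1, Fbl and Nle1. The median SD of the 33 genes was 0.19 among KO arrays and 0.26 among controls, or 0.14 among controls without that array. Leaving it out lowered the difference of 22 of the 28 genes that had been above 0.

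Markers of other cells moved with the groups as well. Of 10 neutrophil markers 7 passed as higher, led by Lcn2 (3.29 ± 0.40) and S100a8 (3.16 ± 0.53), and their mean level lay between 4.77 and 6.70 in the KO arrays and between 3.18 and 3.93 in the controls. Of 8 cholangiocyte markers (bile duct cells) 1 passed as higher, Tm4sf4 (3.04 ± 0.59), and the mean level lay between 4.75 and 6.83 in the KO arrays, against 3.76 to 4.75 in the controls. Of 15 cell cycle genes 1 passed as higher, Ccna2 (1.07 ± 0.22, each SE), with 14 of 15 above 0 and a mean level of 5.12 to 5.68 in the KO arrays, against 4.78 to 5.10 in the controls. Of 10 sinusoidal markers 5 passed as lower, and their mean lay between 10.51 and 10.97 in the KO arrays and between 11.06 and 11.32 in the controls. Hepatocyte markers went both ways, with 1 of 9 higher and 2 lower, and their mean was 6.25 to 7.95 in the KO arrays and 6.47 to 6.70 in the controls. Control replicate 1 had the lowest mean of all arrays for 5 of the 9 marker lists, those of Kupffer cells (5.35), stellate cells (4.74), neutrophils (3.18), the cell cycle (4.78) and general endothelium (9.91). RMA values have no true 0, so no marker can be called absent.

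With these marker means as covariates fewer members passed, and also fewer of all genes than the 320 that passed as higher without a covariate. The neutrophil, cholangiocyte and cell cycle means did not overlap between the groups, so fits with them cannot separate the marker from the group. With the cell cycle mean the median difference of the 33 genes was 0.087, and 23 were above 0 (69.7%, against 44.2% of all genes). None of the 33 passed, where 72 of all genes passed as higher. In that fit the Polr1a difference was 0.37 (adjusted p = 0.637) and that of Pa2g4 0.65 (adjusted p = 0.181, limma). With the neutrophil mean the median was 0.20 and neither a member nor any of the 24704 genes passed, with Polr1a at 0.96 (adjusted p = 0.844) and Pa2g4 at 0.43. With the cholangiocyte mean 23 of the 33 were above 0, against 12184 of all 24704 genes. None of the 33 passed, where 44 of all genes passed as higher, with Polr1a at 0.84 (adjusted p = 0.311) and Pa2g4 at 0.35 (adjusted p = 0.667, limma). With the hepatocyte mean Pa2g4 passed at 0.59 (adjusted p = 0.0311), and Polr1a did not at 0.64 (adjusted p = 0.0643, limma). In that fit 230 of all genes passed as higher. What part other cells or dividing cells have in the members' values was not tested. In RNA from a cell mixture, a change in the number of cells of a type and a change in RNA per cell cannot be told apart.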

How the data were processed

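Total RNA of 10 pools of 3 mice was hybridised to 1-colour Affymetrix arrays, per the labels' protocols. The deposited log2 values are the authors' RMA values, per the submitters' processing notes (RMA subtracts background, quantile-normalizes and summarizes probes); the log2 scale was judged from the range. Sorted, 9 arrays held identical values, and the largest gap to the remaining one was 0.00186. The platform annotation gave exactly 1 symbol to 24705 of the 25428 probe sets and more than 1 to 0; the 723 without a symbol were left out. Keeping the brighter where a gene had more than 1 left 24704 genes. The array number, 5 a group, limits the precision, and p-values measure the spread between pools.

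KO and control were compared with limma 3.58.1 in R 4.3.3 (lmFit, eBayes, two-sided, no covariate, no filter), with Benjamini-Hochberg adjustment over 24704 genes and a threshold of 0.05. The fit was tested on 10 simulated data sets with 200 changed genes each. It recovered 17% of genes changed by 0.5 on the log2 scale, 73.9% of those changed by 1 and 94.6% of those changed by 2. Of its calls 5.47% were false. Each gene was drawn independently from a normal distribution with its own mean and SD, and no simulated array stood apart as control replicate 1 does. These shares can therefore differ in the real arrays. Changes under 0.5, the size seen in most members (median 0.22), were not simulated, and those of 0.5 were mostly missed. A member that did not pass is thus not shown to be unchanged. Alternatives were a filter on dim genes, an intensity trend, robust eBayes, array weights, the replicate block, centring, marker means as covariates and leaving out each array.

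The 33 genes and all lists were chosen with earlier results of these data known, so lists are described by counts and medians, without a test. Named were all 33 genes, Myc, Gata4, 3 checks of the isolated cells and, of each other pathway list, genes past the threshold or else the 2 with the smallest p. Marker lists of lymphocytes (0 of 9 past the threshold), Kupffer cells (0 of 10), stellate cells (0 of 10) and general endothelium (1 of 10, Mcam) were counted too. 5 of the 125 other biogenesis genes listed had no probe set under a matched name. Promoter sequences are from RefSeq (GRCm38.p6), and no genome build of the array is given in the sources used here.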

Additional observations from a re-analysis of the deposited data

Results flagged for a closer look

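In groups of 5 arrays, a value was singled out where its gap to the nearest array, as a share of the group's range, exceeded Dixon's 95% critical value. Of 68 groups (33 genes and Myc, in KO and control) 8 were, where chance gives about 1 in 20, and 6 of the 8 were control replicate 1, so they are not separate observations.

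For Dkc1, control replicate 1 read 3.51, against 5.01 to 5.34 in the other controls. For Srm it read 3.87, against 5.34 to 5.65. For Utp20 it read 3.81, against 5.04 to 5.17, and for Nop16 3.95, against 4.65 to 4.68. For Noc3l it read 4.23, against 5.07 to 5.37, and for Nop14 5.08, against 5.48 to 5.63. Among the KO arrays, Gnl3 was high in replicate 1, at 6.77 against 5.93 to 6.12 in the other 4, and Nop14 was low in replicate 5, at 5.40 against 5.68 to 5.75. What sets control replicate 1 apart was not tested. In that array the means of 5 of the 9 marker lists were also the lowest of the 10 arrays: Kupffer cells (5.35), stellate cells (4.74), neutrophils (3.18), the cell cycle (4.78) and general endothelium (9.91).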

How the results depend on the processing

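The count of 2 members past the threshold was 0 with the replicate block and 1 with the hepatocyte mean as a covariate. It was 0 with the neutrophil, the cholangiocyte or the cell cycle mean, and ran from 0 (without control replicate 5) to 2 when 1 array was left out. Calls over all 24704 genes fell in these fits too, from 320 higher to 200 with the replicate block and 230 with the hepatocyte mean. They were 0, 44 and 72 with the neutrophil, cholangiocyte and cell cycle mean, and 182 without control replicate 5. Same-numbered arrays did not deviate together (r from -0.16 to 0.04 across genes). No label says whether the numbers pair the samples, and these correlations cannot show that they do not. The block's adjusted p (limma) was 0.113 for Polr1a and 0.0663 for Pa2g4. The filter on dim genes, the intensity trend, robust eBayes, array weights and centring left the count of members at 2. In those fits 318 to 616 of the genes tested passed as higher. No member passed as lower in any of the 20 alternatives. The median difference of the 33 genes was 0.087 with the cell cycle mean, and otherwise ran from 0.13 to 0.27. Between 23 and 28 of the 33 were above 0. Differences that did not pass with all arrays changed sign 44 times, in 20 of the 33 genes, 30 of these times with the neutrophil, cholangiocyte or cell cycle mean, and 13 genes kept their sign throughout. Of the 120 other genes none passed under any alternative, and their median ran from -0.04 to 0.08. Myc lost its call with the neutrophil mean (adjusted p = 0.649) and the cholangiocyte mean (adjusted p = 0.173). The neutrophil, cholangiocyte and cell cycle means did not overlap between KO and control, so those fits cannot separate the marker from the group. The cause of these changes was not tested. Intensities over background were not analysed here, since only the summarized values were used.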
